A study of Homo sapiens with 6 samples.

Results

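The genes described are 8 that encode apolipoproteins and other proteins secreted by the yolk sac and fetal liver: APOA1, APOA2, APOB, APOC1, APOE, TTR, HP and AFP. They were taken by symbol from a deposited expression table of 17929 genes, and all 8 have a row there. The table holds 6 RNA-seq libraries of human embryonic stem cells, 3 from the established line H9 and 3 from the established line HES2. In each line 1 library carries a hairpin against luciferase (shLuc), which serves as the control, and 1 library carries each of the hairpins shDDX18#1 and shDDX18#3 that targets DDX18, a nucleolar helicase of the DEAD-box family. Every group was grown on irradiated feeder cells (mouse embryonic fibroblasts) and taken on day 4 after viral infection. Separate cultures are not stated in the labels, so p-values here describe only how these 6 libraries vary, which may be technical. The comparisons bear on the question in the series design of what DDX18 does for stem cell identity.

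Apolipoproteins coat the lipid particles that carry cholesterol and triglyceride between tissues, and lipoprotein receptors on cells take those particles up. In the early embryo the visceral endoderm of the yolk sac makes them before the liver exists, together with carriers such as transthyretin and alpha-fetoprotein. In yolk sac and liver the transcription factors HNF4A, FOXA and GATA act at many of these genes, and APOE is also made by macrophages, astrocytes, fibroblasts and other cells.

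Sequence upstream of the RefSeq start sites (GRCh38.p14) was found for APOA2, APOE, APOC1 and AFP. The 250 bases before the start are shown for APOA2 and APOE, which rose in knockdown cells, and for AFP, one of the 4 genes that were not called. APOE has 3 such starts, of which the first is shown. Capitals mark matches to 5 motifs searched on both strands: CAAAGTNCA for HNF4, GTTAAT for HNF1, TGTTTAC for FOXA, AGATAA for GATA and TATAAA as a TATA box. Sequences read 5′ to 3′ along the gene's strand, which is minus at chr1:161223629-161223878 for APOA2 and plus at chr19:44905546-44905795 for APOE and chr4:73435971-73436220 for AFP.
APOA2: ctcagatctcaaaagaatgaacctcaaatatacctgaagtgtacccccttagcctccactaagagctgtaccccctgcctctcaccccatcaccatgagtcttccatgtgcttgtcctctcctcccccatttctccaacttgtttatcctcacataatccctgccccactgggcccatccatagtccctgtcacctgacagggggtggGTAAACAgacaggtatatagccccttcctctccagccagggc
APOE: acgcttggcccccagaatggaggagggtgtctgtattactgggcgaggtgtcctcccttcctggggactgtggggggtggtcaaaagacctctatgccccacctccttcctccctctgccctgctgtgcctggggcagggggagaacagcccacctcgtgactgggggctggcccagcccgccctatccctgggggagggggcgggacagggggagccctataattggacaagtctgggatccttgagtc
AFP: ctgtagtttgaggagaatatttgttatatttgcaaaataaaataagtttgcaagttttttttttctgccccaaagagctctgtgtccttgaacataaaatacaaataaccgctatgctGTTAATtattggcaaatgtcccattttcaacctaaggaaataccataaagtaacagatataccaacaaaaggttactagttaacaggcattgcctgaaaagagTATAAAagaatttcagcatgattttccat
The APOA2 window held a FOXA match 42 bases before the start, on the reverse strand (GTAAACA), a motif found in 2.98% of 35116 such windows. The AFP window held an HNF1 match 132 bases before the start (6.23% of windows) and a TATA box 29 bases before it (10.7%). None of the 6 windows of these 4 genes held the HNF4 match, present in 0.94% of windows, or the GATA match, present in 9.17%. The APOE and APOC1 windows held none of the 5 motifs. A match of letters is a description and not a binding site.

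Under shLuc, shDDX18#1 and shDDX18#3, the targeted gene DDX18 measured 153, 19.2 and 47.3 CPM in H9, then 161, 39.3 and 60.4 CPM in HES2. CPM denotes the deposited signal, which is counts scaled to 1000000 per effective library. Libraries held 2668179 to 4271741 reads. A single read equalled 0.224 to 0.408 CPM, and 3 reads, used as a floor, equalled 0.671 to 1.23 CPM. Of 16 pluripotent stem cell markers 10 fell in the knockdown libraries and 0 rose, where 6.26% of all genes tested fell and 9.6% rose. Most were abundant in shLuc (SOX2 at 422 and 377 CPM). POU5F1, a defining member, was listed at only 0.322 to 3.58 CPM over the 6 libraries. Whether that value reflects the level of the gene was not tested, so nothing is read from it. FGF4 was at 0 in both shDDX18#3 libraries. Of 17 hepatocyte markers 2 were tested, CPS1 and ASGR1, and neither was called.

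In knockdown cells transcripts of the lipoprotein core proteins rose. APOA1, APOA2, APOB and APOE were higher in the 4 knockdown libraries than in the 2 shLuc libraries and passed the test (limma on log2(CPM + 1) with cell line as a block, Benjamini-Hochberg adjusted p under 0.05 over 17768 genes). That is 4 of the 8 genes rising and 0 falling, where 9.6% of all genes tested rose and 6.26% fell. The median log2 fold change of the 8 genes was 1.41 and that of all genes was -0.02. All fold changes are on the log2(CPM + 1) scale, which understates the change of low genes. Every knockdown library lay above both shLuc libraries for 6 of the 8 genes, the exceptions being HP and AFP, where 19.8% of all genes did so. For APOC1 this rests on 14.2 CPM in HES2 shDDX18#3 against 14.1 in H9 shLuc. For TTR it rests on 1 read in H9 shDDX18#3 against 0 in shLuc. TTR also reached the 1 CPM needed for testing only in the shDDX18#1 libraries, where it is high, so its place among the 6 supports nothing by itself. Leaving out H9 shLuc left 1 of the 8 called and leaving out HES2 shLuc left 0, while calls over all genes went from 2819 to 485 and 192. In bulk RNA a change in the number of cells of a type cannot be told apart from a change in RNA per cell. The plot of levels in the 6 libraries shows each gene on its own axis.

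**Figure D1:**
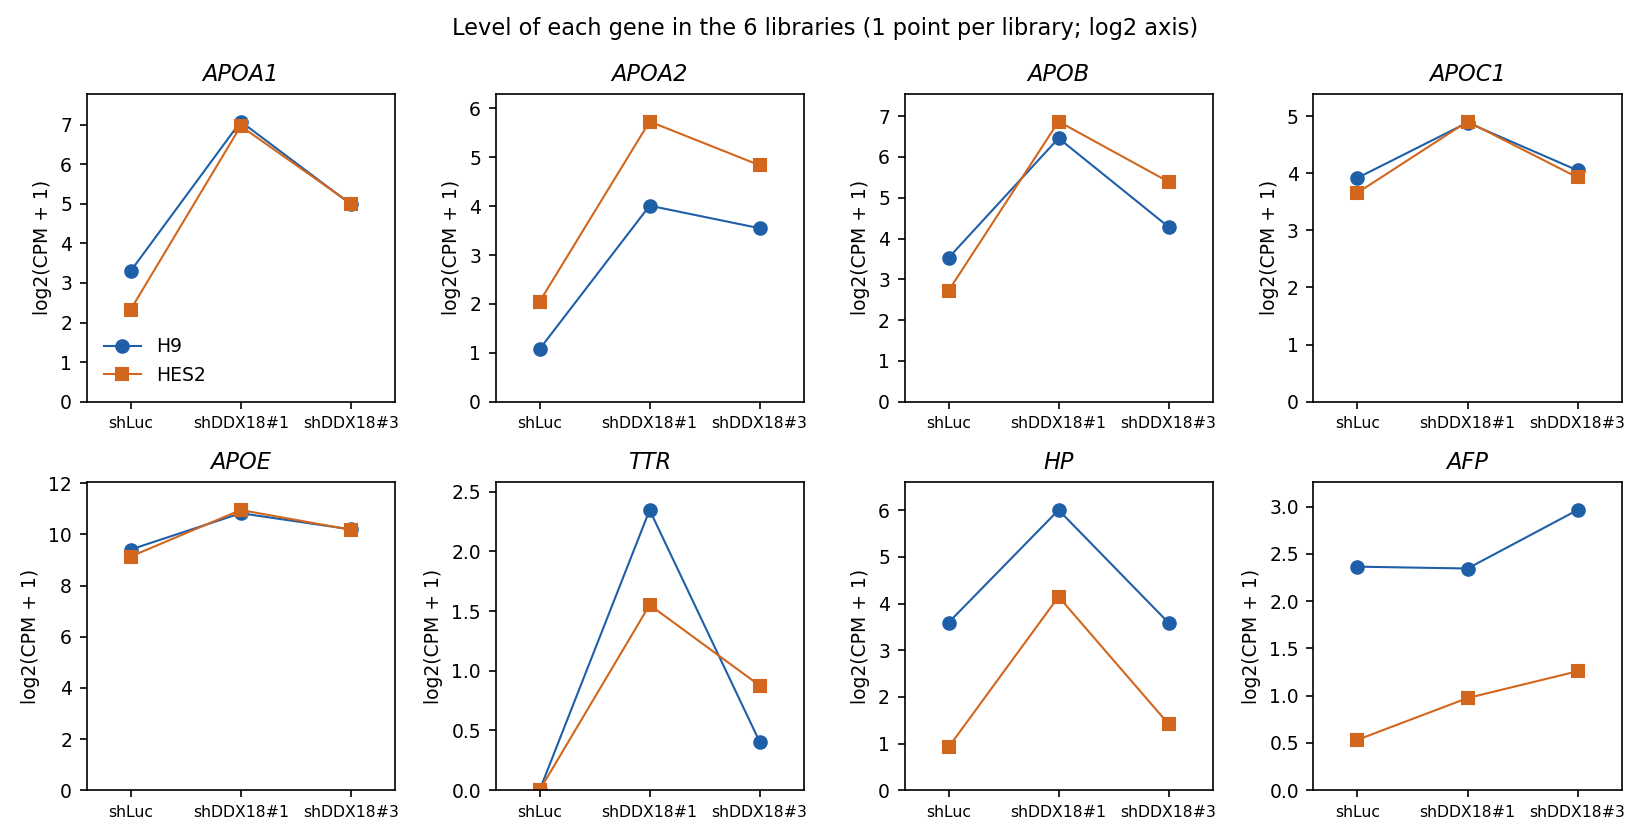
Level of each of the 8 genes as log2(CPM + 1) in the 6 libraries, 1 point per library, with circles for H9 and squares for HES2 and lines joining the libraries of a line. In both lines 7 genes stand higher with shDDX18#1 than with shDDX18#3, where 29.9% of all genes did so, and AFP does not. TTR, among the 7, was tested only because of its shDDX18#1 libraries, so its order supports nothing by itself.

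APOA1 (ENSG00000118137, chromosome 11) encodes the main protein of high density lipoprotein. With shLuc, shDDX18#1 and shDDX18#3 in that order, APOA1 measured 8.86, 134 and 30.8 CPM in H9 and 4.02, 124 and 31.2 CPM in HES2. Both lines thus gave close levels for each hairpin, with shDDX18#1 well above shDDX18#3 and both above shLuc. The rise was from 6.44 ± 3.42 CPM (SD, n = 2) to 80.1 ± 56.8 (SD, n = 4), a log2 fold change of 3.20, SE 0.65 (adjusted p by limma = 0.0185). Leaving out the H9 shLuc library ended the call (3.66, adjusted p = 0.106 by limma), as did leaving out HES2 shLuc (2.73, adjusted p = 0.176). APOA1-AS, an antisense transcript overlapping APOA1, rose by 2.92 (limma adjusted p = 0.0129), and the library kit keeps no strand, so how reads divide between both genes is uncertain.

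APOA2 (ENSG00000158874, chromosome 1) encodes another protein of high density lipoprotein. With shLuc, shDDX18#1 and shDDX18#3 in that order, APOA2 measured 1.11, 15.1 and 10.7 CPM in H9 and 3.13, 52.1 and 27.6 CPM in HES2. It was higher in HES2 than in H9 in each arm, and the hairpins lay closer together than for APOA1. The H9 shLuc value rests on 4 reads, and the ratio to it was 13.6 for shDDX18#1 (95% counting interval 4.9 to 52.7) and 9.66 for shDDX18#3 (3.44 to 37.5). Such intervals cover counting error only. Over both lines the log2 fold change was 2.97 with SE 0.33 (limma adjusted p = 0.0028), and 2.70 without HES2 shLuc (limma adjusted p = 0.0545).

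APOB (ENSG00000084674, chromosome 2) encodes the structural protein of low density and very low density lipoprotein. With shLuc, shDDX18#1 and shDDX18#3 in that order, APOB measured 10.5, 87.0 and 18.5 CPM in H9 and 5.59, 116 and 40.9 CPM in HES2. Ratios to the line's own shLuc were 8.27 and 1.76 in H9 and 20.7 and 7.32 in HES2, so the smallest was in H9 shDDX18#3 (95% counting interval 1.14 to 2.72). The log2 fold change was 2.63 with SE 0.65 (limma adjusted p = 0.0323). It was not called without H9 shLuc (3.41, limma adjusted p = 0.105), without HES2 shLuc (1.85, adjusted p = 0.282), without HES2 shDDX18#1 (2.20, adjusted p = 0.068), without HES2 shDDX18#3 (2.83, adjusted p = 0.051) or without the block (adjusted p = 0.0527).

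APOE (ENSG00000130203, chromosome 19), a ligand for lipoprotein receptors, was the most abundant of the 8 in each library. In the order shLuc, shDDX18#1, shDDX18#3, its level was 678, 1814 and 1173 CPM for H9 and 561, 1979 and 1160 CPM for HES2. The arms did not overlap, and the lines lay close together within each arm. Levels went from 619 ± 82.8 CPM (SD, n = 2) to 1531 ± 427 (SD, n = 4), a log2 fold change of 1.27, SE 0.27 (adjusted p by limma = 0.02). Leaving out H9 shLuc gave 1.43 and ended the call (limma adjusted p = 0.126), and so did leaving out HES2 shLuc (adjusted p = 0.190). APOE held 84.3% to 95.6% of the summed signal of the 8 genes, a sum that made up 0.0721%, 0.197% and 0.123% of the signal for H9 (shLuc, shDDX18#1, shDDX18#3) and 0.0614%, 0.243% and 0.135% for HES2.

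APOC1 (ENSG00000130208, chromosome 19) lies beside APOE and encodes a small exchangeable apolipoprotein. With shLuc, shDDX18#1 and shDDX18#3 in that order, APOC1 measured 14.1, 28.6 and 15.6 CPM in H9 and 11.6, 28.96 and 14.2 CPM in HES2. Both shDDX18#1 libraries were well above the other 4. The shDDX18#3 libraries lay within counting error of shLuc, at ratios of 1.102 in H9 (95% counting interval 0.727 to 1.67) and 1.22 in HES2 (0.814 to 1.83). Over both hairpins APOC1 was not called, at a log2 fold change of 0.65, SE 0.34 (adjusted p by limma = 0.217). Reads that a pseudogene copy of APOC1 could share make its level uncertain.

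Of the carriers, TTR (ENSG00000118271, chromosome 18, transthyretin), which binds thyroxine and the retinol-binding protein, had 0 reads in both shLuc libraries. It had 10 reads in H9 shDDX18#1 (4.08 CPM), 1 in H9 shDDX18#3 (0.324 CPM), 6 in HES2 shDDX18#1 (1.93 CPM) and 3 in HES2 shDDX18#3 (0.835 CPM). Its level was set against a floor of 3 reads in the shLuc library of the line. It stood at 4.92 times that floor in H9 shDDX18#1 and at 2.88 times in HES2 shDDX18#1. These ratios leave out the counting error of the 10 and 6 reads. Both shDDX18#3 libraries lay at or under 3 reads. TTR was not called over both hairpins (limma adjusted p = 0.135), and it was called without H9 shDDX18#3 (adjusted p = 0.0326).

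HP (ENSG00000257017, chromosome 16) encodes haptoglobin, an acute phase protein that binds free hemoglobin. With shLuc, shDDX18#1 and shDDX18#3 in that order, HP measured 11.1, 63.3 and 11.02 CPM in H9 and 0.894, 16.7 and 1.67 CPM in HES2. The level in H9 shLuc was above that in HES2 shDDX18#3, so the knockdown and shLuc groups overlap. Within each line shDDX18#1 was high and shDDX18#3 stood near shLuc, with ratios to shLuc of 0.995 in H9 (95% counting interval 0.611 to 1.61) and 1.87 in HES2 (0.443 to 9.0). The HES2 shLuc value rests on 4 reads. Over both hairpins HP was not called, at 1.53 with SE 0.82 (limma adjusted p = 0.233). HP has a near-identical neighbouring copy, HPR, with which reads may be shared, and it overlaps TXNL4B on the other strand, which was not called (0.46, limma adjusted p = 0.241).

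AFP (ENSG00000081051, chromosome 4) encodes alpha-fetoprotein, the fetal relative of albumin and a main secreted product of the yolk sac. With shLuc, shDDX18#1 and shDDX18#3 in that order, AFP measured 4.15, 4.08 and 6.81 CPM in H9 and 0.447, 0.965 and 1.39 CPM in HES2, which is 2, 3 and 5 reads. The lines did not overlap and the arms did. AFP was not called, at a log2 fold change of 0.44, SE 0.33 and a 95% interval from -0.33 to 1.20 (limma adjusted p = 0.394). AFP had 2 to 21 reads a library.

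Per kilobase of exon the genes can be ranked by level. APOE stood at 256 to 903 CPM per kilobase over the 6 libraries, and no other of the 8 passed 94.3. In shLuc APOC1 came next at 9.44 and 11.5 CPM per kilobase, then APOA1 at 2.83 and 6.22 and APOA2 at 1.17 and 3.31, whose ranges overlap. HP at 0.165 and 2.05, AFP at 0.137 and 1.27 and APOB at 0.377 and 0.71 CPM per kilobase were not separated from each other. The range of APOA2 also overlaps those of HP and AFP, and TTR was at 0. In the knockdown libraries the level of APOA1 was 21.6 to 94.3 CPM per kilobase, that of APOA2 11.3 to 55.2 and that of APOC1 11.5 to 23.5, ranges that overlap. APOB stood at 1.25 to 7.81 CPM per kilobase there. APOB has 14828 bases of exon and APOA2 has 945.

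Each hairpin was also set against shLuc on its own, and both of these comparisons share the shLuc libraries. With shDDX18#1 7 of the 8 genes rose and 0 fell, where 14.4% of all genes rose and 27.8% changed in either direction. TTR is among the 7, but it met the filter of 1 CPM in 2 libraries only through the shDDX18#1 libraries, where it is high, so its call supports nothing by itself. The log2 fold changes were 4.21 for APOA1, 3.31 for APOA2, 3.54 for APOB, 1.11 for APOC1, 1.62 for APOE, 1.95 for TTR and 2.82 for HP, with adjusted p from 7.04e-05 to 0.0136 (limma). AFP was at 0.21 with a 95% interval from -0.64 to 1.06 (limma adjusted p = 0.707). APOC1 was not called without HES2 shDDX18#1 (limma adjusted p = 0.0625), and HP was not called without the block (adjusted p = 0.143). With shDDX18#3 4 of the 8 rose and 0 fell, where 6.96% of all genes rose, namely APOA1 (2.18), APOA2 (2.63), APOB (1.71) and APOE (0.92). APOC1 was at 0.20, TTR at 0.64, HP at 0.24 and AFP at 0.66 with shDDX18#3, and none of them was called. None of the 8 was called with shDDX18#3 without H9 shDDX18#3, without HES2 shDDX18#3 or without the block, where the adjusted p of APOA1 was 0.0511, 0.127 and 0.0617.

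**Figure D2:**
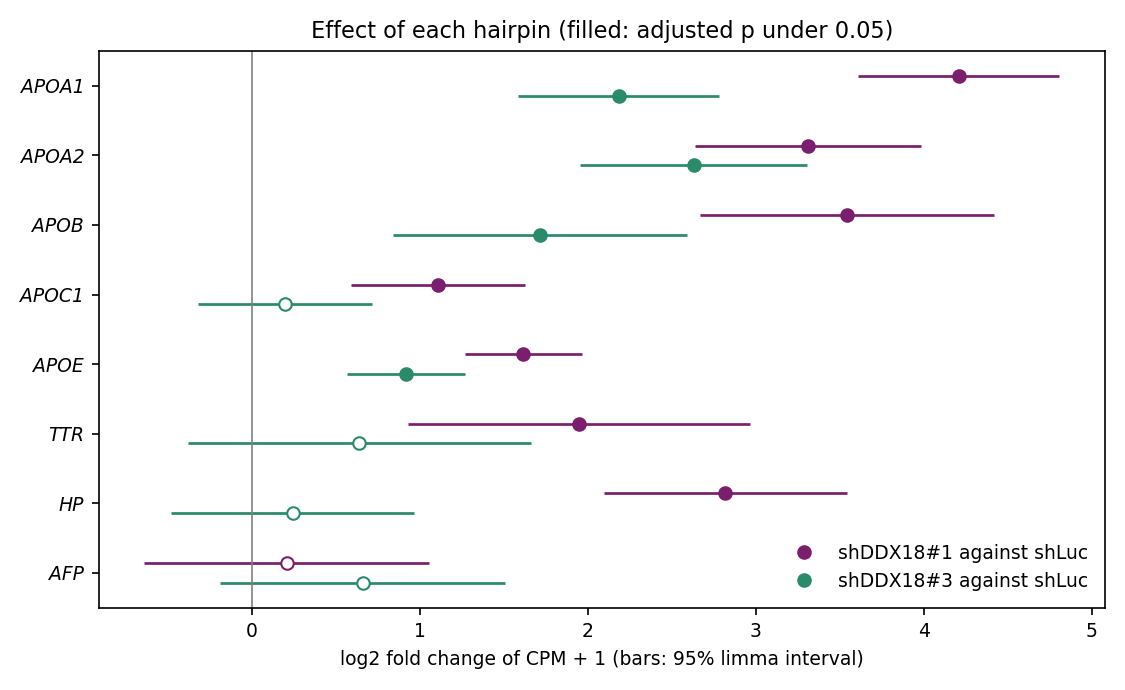
Log2 fold change of CPM + 1 for each hairpin against shLuc, with 95% limma intervals and filled points where the adjusted p was under 0.05. For APOA1 the shDDX18#1 interval (3.61 to 4.80) lies above the shDDX18#3 interval (1.59 to 2.78), for HP shDDX18#3 was at 0.24 and shDDX18#1 at 2.82, and for APOA2 the intervals overlap.

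The hairpins were compared directly as well. In both lines 7 of the 8 genes, all but AFP, stood lower with shDDX18#3 than with shDDX18#1, where 29.9% of all genes did so. TTR is among the 7, but it met the filter of 1 CPM in 2 libraries only through the shDDX18#1 libraries. Its order between the hairpins was therefore fixed by the filter and supports nothing by itself. Limma called 0 of the 8 and 0% of all genes. An unadjusted p under 0.05 was found for 7 of the 8, TTR again among them, against 14.3% of all genes. The differences closest to the threshold were those of HP at -2.58 (95% interval -3.30 to -1.85, limma adjusted p = 0.0541) and APOA1 at -2.02 (-2.62 to -1.43, adjusted p = 0.0541). APOB was at -1.83 (-2.70 to -0.95, limma adjusted p = 0.13), APOC1 at -0.91 (-1.43 to -0.39, adjusted p = 0.155) and APOE at -0.70 (-1.05 to -0.35, adjusted p = 0.137). APOA2 at -0.68 (-1.35 to -0.0041, limma adjusted p = 0.348) and TTR at -1.31 (-2.33 to -0.29, adjusted p = 0.245) were further from it. On recovered reads edgeR called 2 of the 8, APOA1 (adjusted p = 0.0188) and HP (adjusted p = 0.0289), and DESeq2 called 4, out of 31 and 115 genes called in all. Limma called 5 of the 8 without H9 shLuc and 5 without HES2 shLuc, where it called 815 and 817 of all genes.

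**Figure D3:**
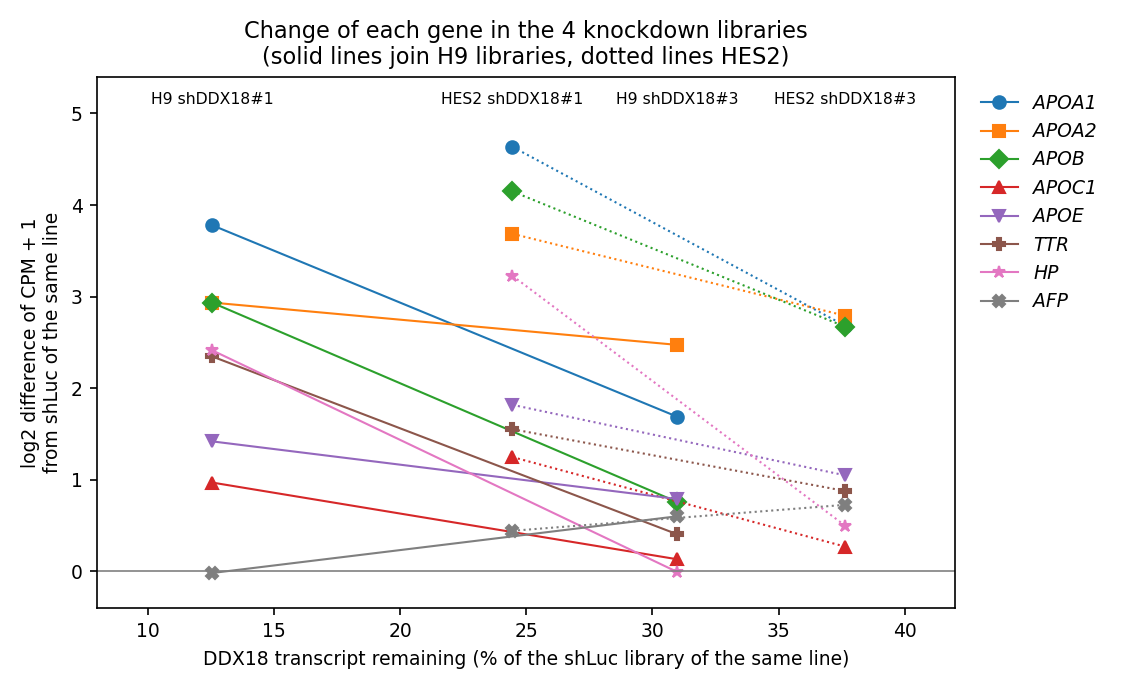
Log2 difference of CPM + 1 of each gene from the shLuc library of its line, against the DDX18 transcript remaining in the same library as a percentage of that shLuc library (12.6% and 31% in H9, 24.5% and 37.6% in HES2). The shDDX18#3 library keeps more DDX18 than the shDDX18#1 library of its line. Within each line 7 of the 8 genes stand lower in it, where 29.9% of all genes did so. TTR, among the 7, was tested only because of its shDDX18#1 libraries, so its order supports nothing by itself. HES2 shDDX18#1 keeps more DDX18 than H9 shDDX18#1. The share of all genes standing higher in either of these libraries is not given, so the order of the 8 genes between them is not counted. By CPM APOA1, TTR, HP and AFP were lower in HES2 shDDX18#1, and APOA2, APOB, APOC1 and APOE were higher. A relation to the DDX18 level was not tested.

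Across lines, the effect of knockdown in HES2 was set against that in H9 as an interaction. Limma called 0 of the 8 genes and 0% of all genes, with 0 of the 8 and 788 of all genes at an unadjusted p under 0.05. EdgeR called 0 genes in all and DESeq2 called 13, none of them among the 8. The intervals are wide: for APOB the effect in HES2 minus that in H9 was 1.56 (95% interval -1.45 to 4.57) and for APOA1 0.92 (-2.33 to 4.18).

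Levels did differ between the lines for 3 of the 8 genes, where 1.44% of all genes were higher in HES2, 3.98% lower and 5.42% either, with the arm as a block. HP was lower in HES2 by a log2 difference of -2.23 with SE 0.26 (limma adjusted p = 0.0025) and AFP by -1.64 with SE 0.30 (adjusted p = 0.0193). APOA2 was higher in HES2 by 1.33 with SE 0.24 (limma adjusted p = 0.0178). The same order of lines held in all 3 arms for each of these genes. None of the 3 was called without H9 shDDX18#3, without HES2 shDDX18#3 or without the arm in the model, and HP alone was called without either shDDX18#1 library. APOA1, APOB, APOC1, APOE and TTR were not called between lines, and their differences ran from -0.36 to 0.24. APOB was called as higher in HES2 without H9 shLuc (limma adjusted p = 0.0274) or without HES2 shLuc (adjusted p = 0.0247).

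The authors' deposited table gives log2 fold changes of 3.69 for APOA1, 3.60 for APOA2, 3.00 for APOB, 1.31 for APOE, 5.56 for TTR and 2.34 for HP, and the false discovery rate of each is below 0.05. For APOC1 and AFP the authors' deposited table gives 0.76 (false discovery rate 0.133) and 0.64 (0.45). That is 6 of the 8 genes rising, where 13.5% of all genes rose under the same rule in that table.

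Other genes of lipoprotein handling went both ways. Of 4 further apolipoproteins tested out of 20 listed, 0 were called, with CLU (clusterin) at -0.23 (limma adjusted p = 0.459) and APOL3 at -0.49 (adjusted p = 0.392), and the median was -0.25. Of 22 genes for lipoprotein assembly, lipases and receptors 5 rose and 3 fell, with a median of 0.23. For this list and those below, the shares over all genes tested are 9.6% rising and 6.26% falling. LRP2 (megalin), an uptake receptor of the yolk sac and kidney, stood at 6.92, 37.6 and 23.7 CPM in H9 and 1.79, 37.3 and 18.4 in HES2 for shLuc, shDDX18#1 and shDDX18#3 (2.62 with SE 0.40, limma adjusted p = 0.00713). LRP1, a broad clearance receptor, rose by 1.35 and the scaffold PDZK1 by 2.47, while the APOE receptor LRP8 fell by 1.12. LCAT, the enzyme that APOA1 activates, rose by 0.79, the chaperone P4HB by 0.75, and SCARB1, a receptor for high density lipoprotein, fell by 0.63.

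Among 12 genes of cholesterol efflux and LXR targets 3 rose and 2 fell, with a median of 0.30. ABCA1, which loads cholesterol onto APOA1, went from 19.6 ± 0.147 CPM (SD, n = 2) to 78.2 ± 15.9 (SD, n = 4), a log2 fold change of 1.92, SE 0.21 (adjusted p by limma = 0.00261). The lysosomal cholesterol transporters NPC1 (1.06) and NPC2 (0.82) rose, and the lipogenic genes SREBF1 (-1.299) and SCD (-1.01), themselves LXR targets, fell.

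In the list of other secreted plasma protein genes, 12 of 33 were tested, 5 rose and 0 fell, with a median of 0.94. Among the 5, VIL1 is a microvillar protein of the cell and not a secreted one. Complement C5 stood at 3.05, 50.6 and 11.7 CPM in H9 and 2.68, 43.4 and 21.2 in HES2 for shLuc, shDDX18#1 and shDDX18#3 (2.88, limma adjusted p = 0.0137), and in both lines it stood highest with shDDX18#1. Vitronectin VTN (1.76), hemopexin HPX (1.67), SERPINF1 (1.38) and VIL1 (1.03) also rose. ALB, RBP4, TF and MTTP were on the lists but had no row under these symbols, so they were not analysed here.

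Of 19 listed genes of the acute phase response and gp130 signalling, which control haptoglobin in liver, 13 were tested. The acute phase proteins on the list, CRP, ORM1, ORM2, LBP, HAMP and LRG1, had no row under these symbols. Of the 13 tested genes 7 rose and 0 fell, with a median of 0.80. The cytokine IL11 (3.86), the shared receptor IL6ST (2.24), the receptors LIFR (2.24) and OSMR (2.29), STAT3 (0.80), SOCS3 (1.00) and the cytokine LIF (1.79) rose. IL6ST stood at 19.4, 80.4 and 82.7 CPM in H9 and at 15.6, 104 and 79.9 in HES2 for shLuc, shDDX18#1 and shDDX18#3, so it was high with both hairpins, where HP was high with shDDX18#1.

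Endoderm and liver transcription factors rose in 10 of 26 cases and fell in 0, with a median of 0.97. HNF4A, a main activator of apolipoprotein genes, stood at 4.98, 73.5 and 34.0 CPM in H9 and 1.79, 62.7 and 24.2 in HES2 for shLuc, shDDX18#1 and shDDX18#3. Like APOA1 it was highest with shDDX18#1 in both lines. GATA4 (2.11), GATA6 (1.99), SOX17 (1.67), FOXA1 (2.01), ONECUT2 (1.45), NR2F2 (3.23), TBX3 (1.95) and ZFHX3 (1.95), which represses AFP, also rose. FOXA2 was not called over both hairpins (0.69, limma adjusted p = 0.183), and with shDDX18#1 it rose by 1.18 (adjusted p = 0.00168).

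**Figure D4:**
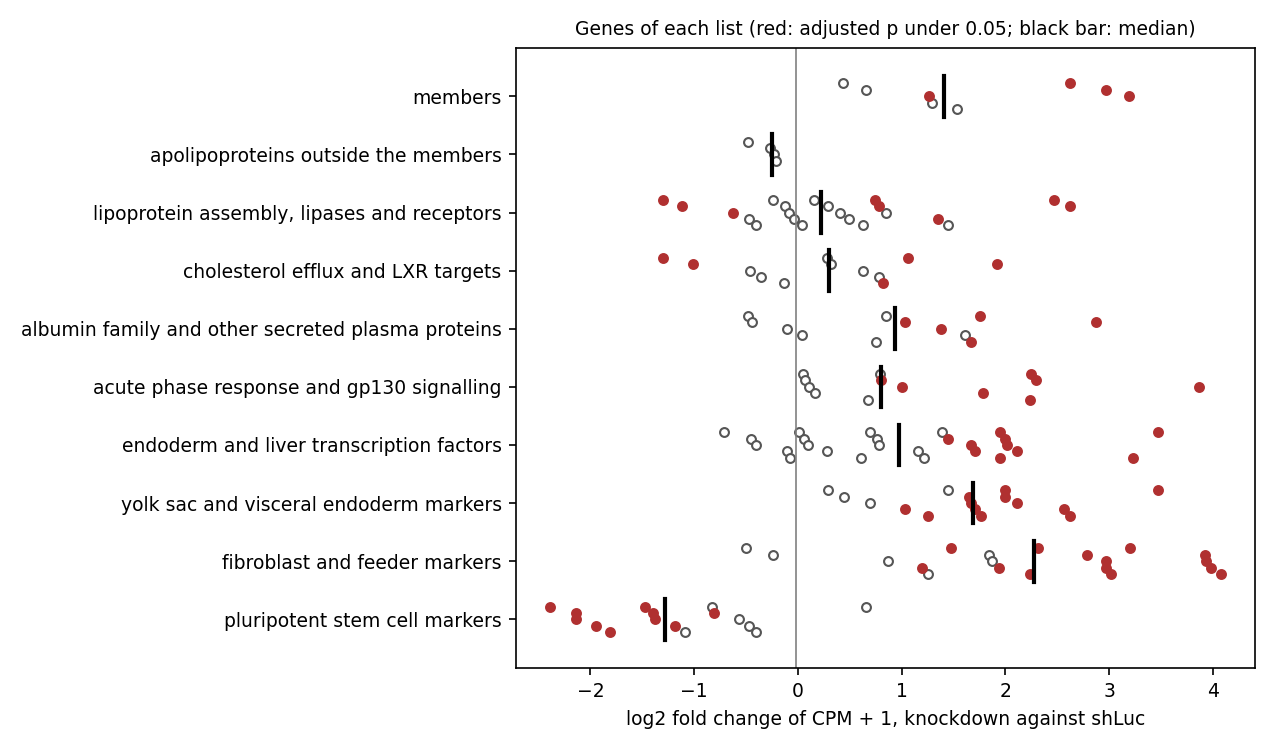
Log2 fold change of CPM + 1, knockdown against shLuc, for the genes of each list (the top line holds the 8 genes described), with red points at an adjusted p under 0.05, open points otherwise, a black bar at the list's median and a grey line at the median of all genes (-0.02). Receptors and LXR targets lie on both sides of the line, and the called transcription factors lie to its right.

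Markers of the cell types that make these proteins, and of fibroblasts, also differed between the arms. Of 20 yolk sac and visceral endoderm markers listed, 16 were tested. The others, TF, RBP4, SERPINA1 and APOM, all secreted proteins, had no row under these symbols. Of the 16 tested markers 12 rose and 0 fell, with a median of 1.69. Their summed level in the order shLuc, shDDX18#1, shDDX18#3 was 0.157%, 0.795% and 0.496% of the signal for H9. For HES2 it was 0.109%, 0.462% and 0.329%. That sum is carried by COL4A1 and SPARC, matrix genes that fibroblasts also express. FOXA2 was at 0.69, CUBN, the uptake receptor that works with LRP2, at 1.44 (limma adjusted p = 0.0664), AMN at 0.29 and CER1 at 0.44, none of them called. Of 20 fibroblast and feeder markers 14 rose and 0 fell, with a median of 2.28, and their sum in the same order was 0.377%, 4.10% and 1.72% for H9 and 0.126%, 0.731% and 0.609% for HES2. Of the fibroblast markers DCN and FAP were at 0 in HES2 shLuc and HES2 shDDX18#3. By the filter of 1 CPM in 2 libraries, no tested marker could be at 0 in all 6. The part of such cells in the rises of the 8 genes was not tested. Without H9 shDDX18#1, the library with the most fibroblast marker signal, 4 of the 8 genes and 2708 of all genes were called. The limma adjusted p was 0.0236 for APOA1, 0.00423 for APOA2, 0.0468 for APOB and 0.0268 for APOE. Without HES2 shDDX18#1 3 of the 8 and 1014 of all genes were called. The summed fibroblast marker signal was above that of shLuc in the other 3 knockdown libraries as well. Leaving out H9 shDDX18#1 is therefore not a test of that part. In the knockdown libraries most of the fibroblast sum came from collagen genes and VIM, and not every marker rose in HES2. For shLuc, shDDX18#1 and shDDX18#3 in HES2, THY1 measured 325, 100 and 177 CPM and S100A4 7.60, 4.18 and 1.67. POSTN measured 1.56, 1.61 and 0.835 CPM there.

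**Figure D5:**
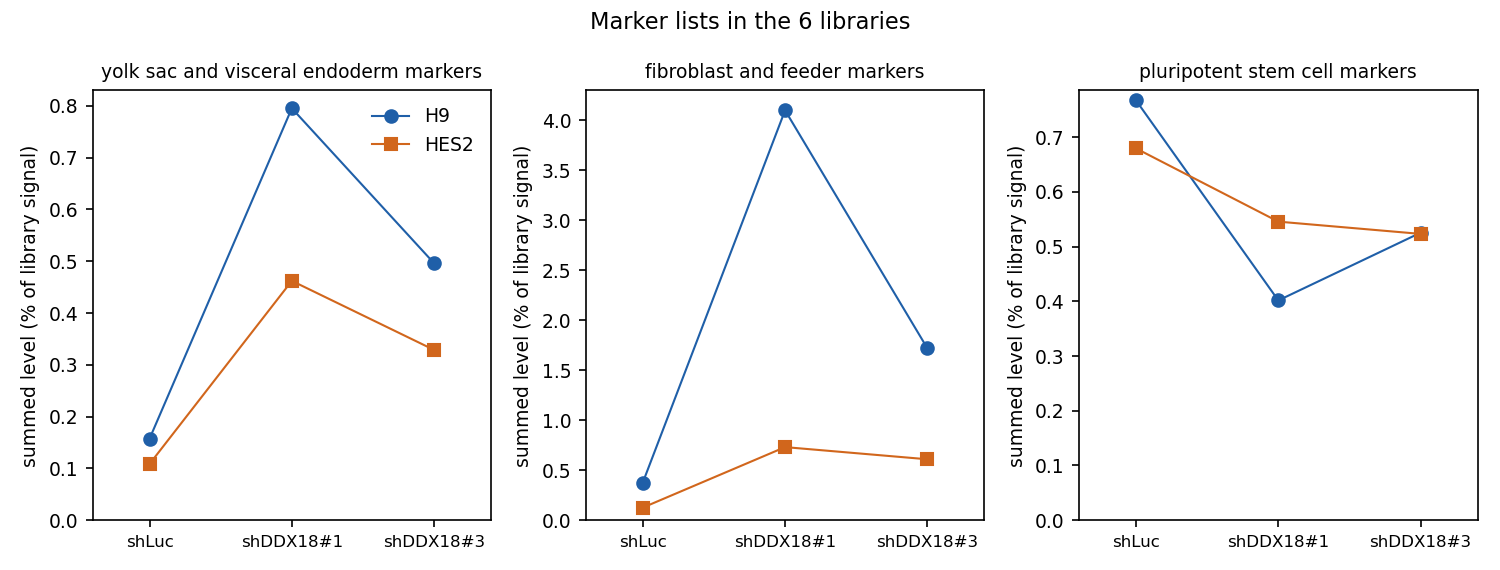
Summed level of 3 marker lists as a percentage of the library's signal in the 6 libraries, with circles for H9 and squares for HES2. Yolk sac and fibroblast lists stand highest with shDDX18#1 in both lines, and the fibroblast list reaches 4.10% in H9 shDDX18#1 against 0.731% in HES2 shDDX18#1.

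Genes with the most similar profile over the 6 libraries were found for each of the 8 with a mean of at least 3 CPM, by the root mean square difference of log2(CPM + 1) centred on each gene's mean, among 13236 genes. Nearest to APOA1 was GDF15, a stress-induced cytokine, at 18.8, 238 and 75.2 CPM in H9 and 6.71, 198 and 59.6 in HES2 for shLuc, shDDX18#1 and shDDX18#3 (difference 0.22), then FAM198B-AS1 (0.29). APOA2 was nearest to ESAM (0.24) and DGKK (0.32), which also stood higher in HES2 in each arm, and APOB to HOXB2 (0.20) and YPEL2 (0.30). APOC1 was nearest to SLC3A2 (0.08) and GAS2L1 (0.09), and APOE to CALHM5 (0.09) and ARHGAP18 (0.10). The nearest genes to HP were farther away, DNAJC15 at 0.58 and CLDN1 at 0.67. Among the 8 themselves the closest pairs were APOC1 with APOE (0.31), APOE with TTR (0.40) and APOA1 with APOB (0.45), and the farthest was APOA2 with HP (2.06).

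Flanking genes on the chromosome were examined as well. The nearest tested gene on each side was taken from GENCODE positions (GRCh38), passing over genes that were not tested, so distances reached 2341 kb (KLHL29 from APOB). Of these 14 genes 2 rose, 1 fell and 11 were not called, with a median of -0.12, where 9.6% of all genes tested rose and 6.26% fell. With so few genes these counts are not set apart from those shares. TOMM40, next to APOE on chromosome 19, stood at 253, 117 and 141 CPM in H9 and 216, 154 and 155 in HES2 for shLuc, shDDX18#1 and shDDX18#3 (-0.73 with SE 0.16, limma adjusted p = 0.024), so it was highest in shLuc, where APOE was lowest. CLPTM1, on the other side of that cluster, rose by 0.46 (limma adjusted p = 0.0492) and RASSF6, 115 kb from AFP, rose by 1.65 (adjusted p = 0.0329). These 3 genes were singled out after their values had been seen.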

How the data were processed

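The members and gene lists were chosen with earlier results of these data known. The submitters' processing notes name Bowtie2 (version 2.3.4.3), SAMtools (1.9), HTSeq (0.11.2), edgeR (3.26.8) and the build hg19, and which step used which is not given in the sources used here. The authors deposited 1 table. Per the file headers it holds a TMM signal for each library, and for knockdown against shLuc a log2 fold change, a p-value, its false discovery rate and a likelihood ratio score. Whole reads could be recovered from 100% of the deposited signal values, with a tolerance of 0.001. The library kit was TruSeq, which does not mark strand, per the labels' protocols.

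Genes reaching 1 CPM in 2 or more libraries entered limma 3.58.1 in R 4.3.3 on log2(CPM + 1) with an intensity trend and Benjamini-Hochberg adjustment over 17768 genes. Cell line was a block because the replicate numbers are the 2 lines, and deviations from the arm means correlated across genes between arms of the same line with r of 0.36, 0.45 and 0.65. The authors' table was compared for its log2 values and false discovery rates, and its score was not used. Alternative settings changed the pseudocount (0.25 or 4), the filter (none or 5 CPM), the scaling (library totals or quantiles), the prior (without trend, or robust) and the block (left out). Recovered reads were also tested with edgeR 4.0.16 and with DESeq2 1.42.0, and each library was left out in turn. Ratios carry exact conditional binomial (Clopper-Pearson) 95% intervals. The rule for flanking genes was chosen after the data had been seen. Exon lengths and gene order came from GENCODE 29 on GRCh38. Named genes were the 8 members, DDX18, up to 6 called genes of each list with the smallest p, or the 2 with the smallest p where none was called, fixed genes such as HNF4A and LRP2, and the 2 genes nearest to each member in profile. Further list genes were named with their values already known. Some named list genes are left out of the text and not reported here.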

Additional observations from a re-analysis of the deposited data

How the results depend on the processing

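Knockdown against shLuc called 4 of the 8 genes, 1 without the trend in the prior variance, and 0 to 5 when 1 library was left out (1 without H9 shLuc, where APOA2 remained, and 0 without HES2 shLuc). Over all genes 2819 calls became 1228 without the trend and 192 to 3590 with 1 library left out. The shDDX18#1 comparison called 7, and 5 to 7 with 1 library left out. The shDDX18#3 comparison called 4, 1 without the trend, 0 with no replicate block and 0 to 4 with 1 library left out, and over all genes 1891, 227, 18 and 23 to 2232. Between hairpins the count of 0 became 2 after quantile normalization, 2 with a robust prior, 2 with edgeR, 4 with DESeq2 and 0 to 5 with 1 library left out, where over all genes 18, 43, 31, 115 and 0 to 817 were called. HES2 against H9 called 3, 0 with no replicate block (the arm left out of the model) and 0 to 4 with 1 library left out, and over all genes 963, 36 and 95 to 2154. The interaction called 0 in each alternative run, and it could not be fitted without a shLuc library. With no replicate block the knockdown comparison called 3 of the 8 and shDDX18#1 called 6. No log2 fold change of the 8 genes for knockdown against shLuc changed sign in the alternatives run. An arm reduced to 1 library was given the variance of the rest. The causes of these changes were not tested. TTR and AFP were not tested under the filter of 5 CPM, nor TTR without either shDDX18#1 library, and they had 0 to 21 reads a library.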
